A study of Mus musculus with 3 samples.

Results

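The Ikaros family of zinc finger transcription factors was examined in CD8 T cells of mice on 3 expression arrays. Its genes were selected by annotation: every probe set whose platform entry gives Ikzf1, Ikzf2, Ikzf3, Ikzf4 or Ikzf5 as its only symbol was taken, with symbols brought up to date through the Entrez identifier. All 5 genes were found, with 13 probe sets, among 18194 named genes and 45101 probe sets. Ikzf1 and Ikzf5 had 2 probe sets each, and Ikzf2, Ikzf3 and Ikzf4 had 3 each. A probe set is a group of short oligonucleotides that report on 1 stretch of a transcript, so probe sets of a gene can disagree. Of the 13, 10 lay above a floor of 31.7 on all 3 arrays and 1, of Ikzf4, lay below it on all 3. The floor is the median of all deposited values. Signals under it were raised to it for log2 differences, and a difference with both arrays under it was treated as not measured. Sums of signals over marker lists use the deposited values, also those under the floor.

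The cells came from tissue labelled MLN, the usual abbreviation of mesenteric lymph node, and each group holds 1 array. In the CL4-TCR group, CD8 T cells carry a transgenic receptor for the influenza virus protein hemagglutinin (HA). The VILLIN-HA/CL4-TCR group, like the one named Villin-HA + CL4-TCR, carries the same HA-specific receptor, so it is shared by all 3 groups, and both names add HA under the villin promoter, which is active in gut epithelial cells. The submitters describe an ordinary population, one activated in the animal and one of regulatory cells generated in the animal, but the labels do not tie either of the latter to a group name. The strain, sex and age of the mice, the number of animals behind each RNA and the isolation of the cells are not stated in the labels. With no replicate, every difference is one between single arrays, no test between conditions was possible, and their number limits the precision. In such bulk RNA, more cells that express a gene and more RNA per cell cannot be told apart.

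Ikaros proteins bind DNA through a cluster of zinc fingers near one end, recognise a GGGAA core, and pair with each other through fingers at the other end. They recruit chromatin remodelling and deacetylase complexes, and they can repress or activate genes. Ikaros (Ikzf1) is needed for lymphocyte development, and Aiolos (Ikzf3) is best known from B cells and from differentiated T cells. Helios (Ikzf2) is expressed in regulatory CD4 T cells and in regulatory CD8 T cells, where it supports a stable suppressive state, and it also appears in activated T cells. Eos (Ikzf4) works with Foxp3 as a corepressor, and Pegasus (Ikzf5) is the most distant relative and recognises another DNA sequence.

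All 3 arrays had signals of CD8 T cells, with Cd8a at 2714, 2893 and 3149, while Cd4 lay below the floor on each. Here and below, 3 signals in a row are in the order CL4-TCR, then VILLIN-HA/CL4-TCR, then Villin-HA + CL4-TCR. All 7 CD8 T cell markers found were above the floor on each array, and none differed by 2-fold or more in any comparison. The ratio of the 3′ to the 5′ Gapdh control probe sets, which rises with RNA degradation, was 18.4, 46.2 and 3.35, and that of the beta-actin control was 1.98, 2.46 and 1.80. Xist, a transcript of female cells, had signals of 5442.5, 2.5 and 1339. Eif2s3y, a gene of the Y chromosome, had 13.4, 1496 and 746.9. Villin-HA + CL4-TCR thus had transcripts of both sexes, and the sex of the animals cannot be told apart from the group. The part of these differences in the results below was not tested.

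**Figure D1:**
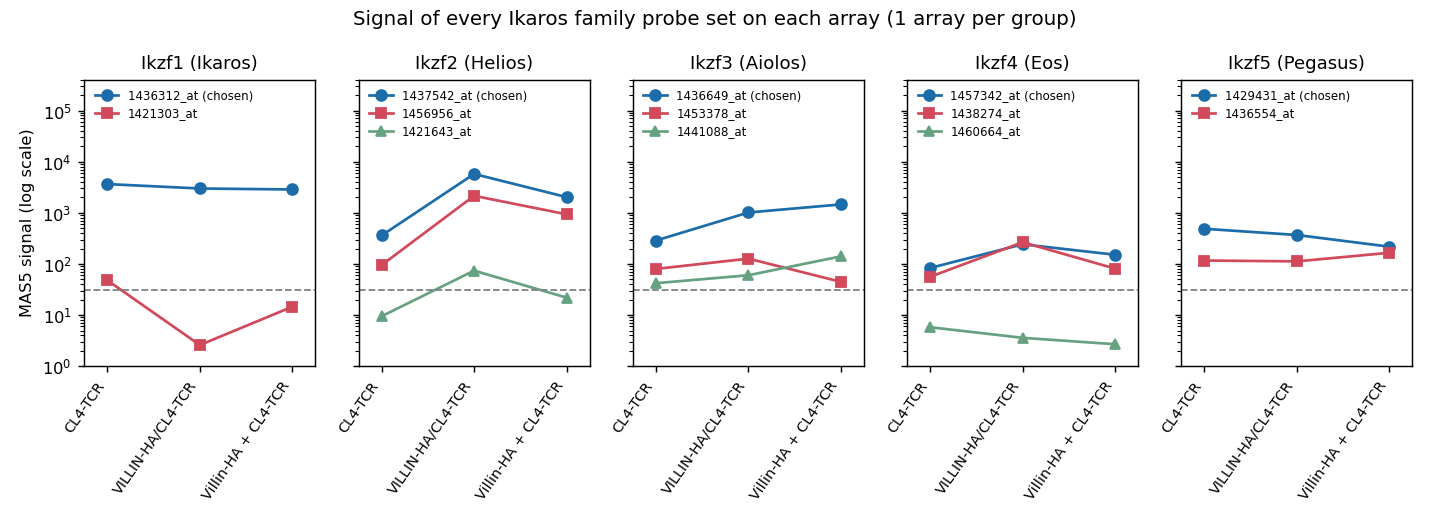
Signal of each of the 13 probe sets (vertical axis, MAS5 signal on a log scale) on each of the 3 arrays, with 1 panel per gene and a dashed line at the floor of 31.7. Lines join the points of 1 probe set and show no order of groups; the 3 probe sets of Ikzf2 are all highest on VILLIN-HA/CL4-TCR, and the chosen one of Ikzf1 stays between 2862.5 and 3647.

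Helios was the member that differed most. The Ikzf2 probe set 1437542_at had 361 on CL4-TCR, 5757 on VILLIN-HA/CL4-TCR and 2029.7 on Villin-HA + CL4-TCR. A second one, 1456956_at, had 95.1, 2151 and 936. The third, 1421643_at, was dim, with 9.5, 74.1 and 22.0, and passed the floor only on VILLIN-HA/CL4-TCR. Both brighter probe sets thus gave the same order, with VILLIN-HA/CL4-TCR highest, Villin-HA + CL4-TCR between and CL4-TCR lowest. The third was also highest on VILLIN-HA/CL4-TCR but does not order the other arrays, where it lay below the floor.

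Against CL4-TCR, Ikzf2 was 15.96-fold higher on VILLIN-HA/CL4-TCR by its brightest probe set, the kind that stood for each gene, and 22.6-fold by 1456956_at. The dim probe set gave at least 2.34-fold, and the mean log2 difference of the brighter probe sets was 4.25. On Villin-HA + CL4-TCR it was 5.63-fold and 9.84-fold higher than on CL4-TCR by the brighter probe sets. Of the arrays with HA in their names, here the HA arrays, VILLIN-HA/CL4-TCR had more Ikzf2 signal: it was 2.84-fold, 2.30-fold and at least 2.34-fold higher there. The SD between the log2 differences of its 2 brighter probe sets was 0.36, 0.57 and 0.21 in these 3 comparisons (n = 2), below each mean log2 difference of 4.25, 2.90 and 1.35. That spread covers probe effects and not animals.

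Aiolos was higher on both HA arrays by its brightest probe set, but its probe sets disagreed. The Ikzf3 probe set 1436649_at had signals of 287, 1015 and 1459. The probe set 1441088_at had 42.1, 60.2 and 140.7, also highest on Villin-HA + CL4-TCR. The probe set 1453378_at had 80.0, 127 and 44.8 and was lowest there.

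For Ikzf3 the difference from CL4-TCR was 3.54-fold higher on VILLIN-HA/CL4-TCR by 1436649_at, and the other probe sets had log2 differences of 0.67 and 0.52, short of 2-fold. On Villin-HA + CL4-TCR the gene was 5.09-fold higher by 1436649_at and 3.34-fold by 1441088_at, while 1453378_at had a log2 difference of -0.84. The mean over the 3 probe sets was 2.00-fold and 2.12-fold higher in these comparisons, with SDs of 0.71 and 1.69 on the log2 scale. The log2 differences between the HA arrays, positive where VILLIN-HA/CL4-TCR was higher, were -0.52, 1.51 and -1.22 for 1436649_at, 1453378_at and 1441088_at, so the order of the HA arrays depended on the probe set. By the chosen one, that difference was smaller than 0.61, the SD between probe sets of a gene pooled over 4222 genes in this comparison.

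Eos was highest on VILLIN-HA/CL4-TCR, at a modest signal. The Ikzf4 probe set 1457342_at had 83.6 on CL4-TCR, 242 on VILLIN-HA/CL4-TCR and 152 on Villin-HA + CL4-TCR. The probe set 1438274_at had 56.2, 266 and 81.2, in the same order, and 1460664_at, with 5.8, 3.6 and 2.7, was below the floor throughout.

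Ikzf4 was 2.90-fold and 4.74-fold higher on VILLIN-HA/CL4-TCR than on CL4-TCR by its measured probe sets. On Villin-HA + CL4-TCR it was short of 2-fold, with log2 differences from CL4-TCR of 0.86 and 0.53. Set against Villin-HA + CL4-TCR, it was 1.60-fold higher on VILLIN-HA/CL4-TCR by the chosen probe set and 3.28-fold by 1438274_at. The mean of these, 2.29-fold, would count as higher where the chosen probe set alone does not.

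Ikaros itself, the founding member, differed little between arrays. The bright Ikzf1 probe set 1436312_at had 3647, 2991 and 2862.5. Its log2 differences from CL4-TCR were -0.29 and -0.35, and the HA arrays differed by 0.06, each smaller than the pooled SD between probe sets of a gene, which was 0.43, 0.65 and 0.61. The other probe set, 1421303_at, had 47.9, 2.6 and 14.6. It passed the floor on CL4-TCR alone, so it was at least 1.51-fold lower on both HA arrays.

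Pegasus had probe sets that went apart on Villin-HA + CL4-TCR. The Ikzf5 probe set 1429431_at had 488, 369 and 218, and 1436554_at had 117, 112 and 166. By the first, the gene was 2.24-fold lower on Villin-HA + CL4-TCR than on CL4-TCR, and by the second its log2 difference was 0.50. Their mean, -0.33, is short of 2-fold. On VILLIN-HA/CL4-TCR the log2 differences from CL4-TCR were -0.40 and -0.06, both within the pooled SD of 0.43. The HA arrays differed by 0.76 and -0.56, a mean of 0.10.

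**Figure D2:**
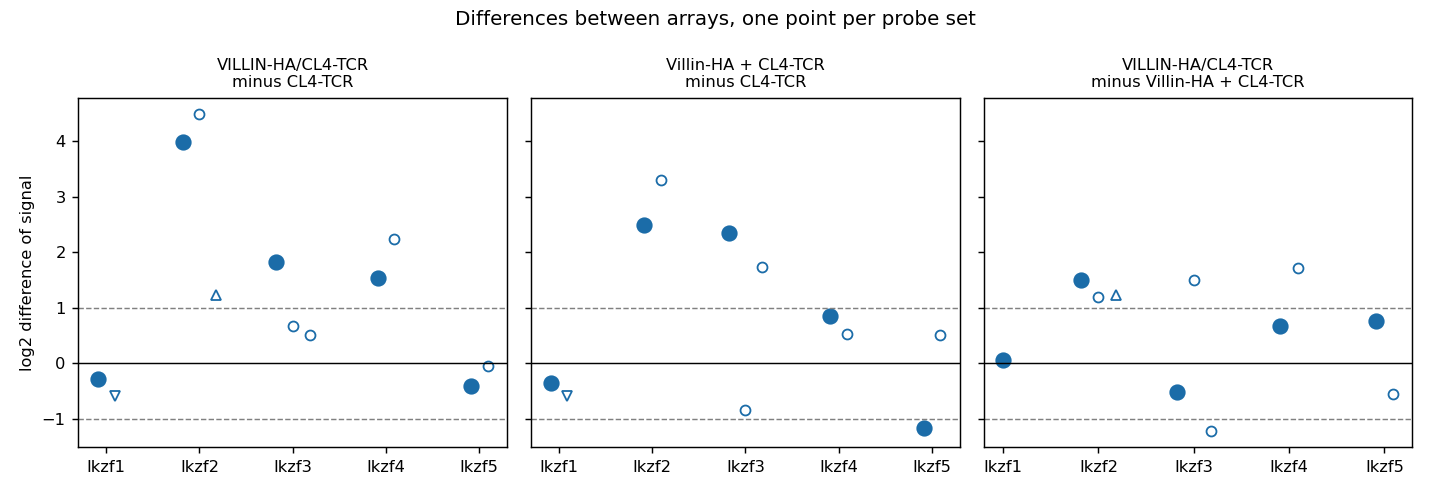
Log2 difference of signal (vertical axis) for each measured probe set of the 5 genes in the 3 comparisons. Filled symbols are the probe sets that stood for the gene, circles were above the floor on both arrays, triangles are lower bounds of the size, and dashed lines mark 2-fold; Ikzf2 lies above the upper dashed line in every panel, and the Ikzf3 points lie on both sides of 0 in the middle and right panels.

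Counted by gene, 3 of 5 members (Ikzf2, Ikzf3 and Ikzf4) were at least 2-fold higher on VILLIN-HA/CL4-TCR than on CL4-TCR and none lower, where 7.43% of 11260 measured genes were higher and 6.63% lower. On Villin-HA + CL4-TCR, 2 members (Ikzf2 and Ikzf3) were higher and 1 (Ikzf5) lower than on CL4-TCR, where 11.9% of 12196 genes were higher and 9.53% lower. In the comparison of the HA arrays only Ikzf2 was counted, higher on VILLIN-HA/CL4-TCR, where 6.13% of 12081 genes were higher and 8.95% lower. The first 2 comparisons share the CL4-TCR array, so their counts are not separate. The members' median log2 differences were 1.54, 0.86 and 0.68 in these comparisons, beside -0.04, 0.06 and -0.06 over all measured genes. With only 5 genes, such a median is the value of 1 of them.

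By probe set, 6 of 12 measured were higher and none lower on VILLIN-HA/CL4-TCR against CL4-TCR, where 6.47% of all measured probe sets were higher and 6.89% lower. The corresponding counts were 4 higher and 1 lower of 11 on Villin-HA + CL4-TCR, beside 11.4% and 10.4%, and 5 higher and 1 lower of 11 between the HA arrays, beside 6.49% and 9.3%. Scaling every array to 1 median instead of 1 trimmed mean shifted the median of all genes by 0.25 between the HA arrays and by -0.19 for Villin-HA + CL4-TCR against CL4-TCR. The share of counted genes that were higher then went from 40.7% to 67.3% and from 55.6% to 38.2%. No member's gene-level difference took another sign, and Ikzf5 became 2.03-fold higher on VILLIN-HA/CL4-TCR than on Villin-HA + CL4-TCR.

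Helios stood near the top of the genes above the floor on both arrays in each comparison. Genes with 1 array at the floor are left out of the ranks below. Among them is Mki67, at least 69.3-fold higher on VILLIN-HA/CL4-TCR and at least 101-fold higher on Villin-HA + CL4-TCR than on CL4-TCR. Among 9353 genes above the floor on both arrays, 14 had a more positive difference than Ikzf2 between VILLIN-HA/CL4-TCR and CL4-TCR, against 166 for Ikzf3 and 229 for Ikzf4. Among 9497 genes for Villin-HA + CL4-TCR against CL4-TCR, 112 were more positive than Ikzf2, 131 than Ikzf3 and 1170 than Ikzf4. Between the HA arrays, 166 of 9683 genes were more positive than Ikzf2. Ikzf1 lay within the bulk of genes, with 65.9%, 66.2% and 47.0% of them more positive.

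**Figure D3:**
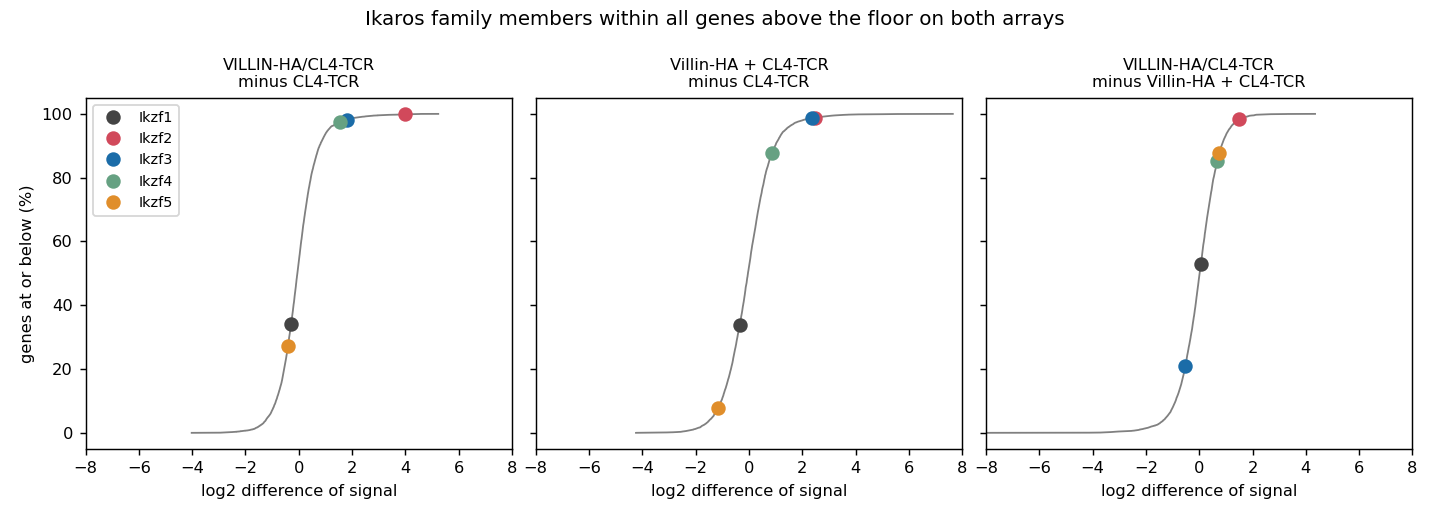
Cumulative share of genes (vertical axis, percent) at or below each log2 difference of signal (horizontal axis), over genes above the floor on both arrays, with the 5 members marked by their chosen probe sets. Ikzf2 lies at the upper end of each curve, beside Ikzf3 in the middle panel, and Ikzf1 lies within the steep part of all 3.

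The genes with the pattern most like that of Ikzf2 were taken as those nearest to it in both log2 differences from CL4-TCR, among 9009 other genes above the floor on all 3 arrays. They were Tnfrsf9, Irf4, Casp4, Spry1 and Lad1, at distances of 0.20, 0.32, 0.34, 0.48 and 0.49. The likeness rests on 3 arrays and on 2 differences that share 1 of them. Tnfrsf9, the costimulatory receptor 4-1BB, a gene already picked out by the study, had signals of 53.1, 853 and 342. Irf4, a transcription factor induced by T cell receptor signals, had 49.6, 887 and 339. Both were thus highest on VILLIN-HA/CL4-TCR and between on Villin-HA + CL4-TCR.

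Casp4, an inflammatory caspase, had signals of 63.5, 882 and 431. Spry1, an inhibitor of receptor tyrosine kinase signalling, had 35.7, 479 and 152, close to the floor on CL4-TCR. Lad1, which encodes the anchoring filament protein ladinin, had 78.3, 1345 and 315.5. Other probe sets did not all follow: a second one of Irf4 had 30.6, 26.6 and 41.2, and 1421481_at of Tnfrsf9 had 29.9, 13.1 and 49.1.

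Because Helios and its relatives recognise a GGGAA core, the bases before the start of the genes nearest to Ikzf2 are shown with that core in capitals, read as GGGAA or, on the other strand, TTCCC. They are the 250 bases before a start in RefSeq's GRCm38.p6 annotation, on the strand of the gene, for Tnfrsf9 (chr4:150919905-150920154, plus strand), Irf4 (chr13:30748983-30749232, plus strand) and Casp4 (chr9:5308599-5308848, plus strand).
Tnfrsf9: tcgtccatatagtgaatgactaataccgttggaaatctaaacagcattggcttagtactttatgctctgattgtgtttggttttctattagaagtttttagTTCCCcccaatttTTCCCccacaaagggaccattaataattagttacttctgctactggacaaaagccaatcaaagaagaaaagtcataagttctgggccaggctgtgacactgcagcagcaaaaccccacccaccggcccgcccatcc
Irf4: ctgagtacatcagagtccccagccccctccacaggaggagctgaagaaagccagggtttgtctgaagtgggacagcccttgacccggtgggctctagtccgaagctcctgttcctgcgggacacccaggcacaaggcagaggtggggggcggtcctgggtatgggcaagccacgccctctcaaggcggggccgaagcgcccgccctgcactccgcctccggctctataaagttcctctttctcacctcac
Casp4: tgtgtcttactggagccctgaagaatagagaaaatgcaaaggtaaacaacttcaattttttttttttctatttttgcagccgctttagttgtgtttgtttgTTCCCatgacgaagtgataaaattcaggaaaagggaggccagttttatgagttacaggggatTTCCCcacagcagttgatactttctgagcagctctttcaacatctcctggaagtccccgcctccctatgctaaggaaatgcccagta

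The core occurred 2 times before this start of Tnfrsf9, at 149 and 136 bases from it, and 2 times before that of Casp4, at 149 and 87 bases. It was not in the windows of Irf4, Spry1 and Lad1. The second match of Casp4 overlaps a longer NF-kappaB-type motif, searched as GGGNNTTCC on both strands. Tnfrsf9 has another annotated start, not shown, with 1 match of the core at 37 bases before it, which overlaps that motif too. Over all genes with a promoter entry, 59.4% of 27025 held the core in at least 1 window, so a match is common and describes letters, not binding. Of the members, Ikzf1 and Ikzf5 had entries, and Ikzf2, Ikzf3 and Ikzf4 had none. For Ikzf1 the core was in 1 of 2 windows, with 2 matches, and for Ikzf5 1 match lay 36 bases before the start.

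Ikaros proteins act through partners such as NuRD, a complex that joins a chromatin remodeller to histone deacetylases. Of 13 NuRD genes, 1 was higher and 3 lower on VILLIN-HA/CL4-TCR than on CL4-TCR (median log2 difference 0.04). Hdac1, a deacetylase, had 780, 1730.1 and 988.5, 2.22-fold higher on the second than on the first. The lower genes were Mta3 (2.37-fold), Mta2 (2.06-fold) and Mbd3 (at least 2.67-fold), all subunits of the complex. On Villin-HA + CL4-TCR against CL4-TCR, 1 of the 13 was lower, the remodeller Chd3 (2.20-fold), and none higher (median 0.02). Of the HA arrays, VILLIN-HA/CL4-TCR had 1 higher, Chd3 (2.16-fold), and 2 lower, Mta2 (2.09-fold) and Mbd3 (at least 3.65-fold), with a median of 0.31.

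Of 9 CtBP, Sin3 and SWI/SNF genes, further corepressors and remodellers, none reached 2-fold on VILLIN-HA/CL4-TCR against CL4-TCR or between the HA arrays, with medians of -0.06 and 0.05. On Villin-HA + CL4-TCR 1 was lower than on CL4-TCR, Ctbp2 (at least 2.12-fold), with a median of 0.00. Of 10 genes of a kinase, a phosphatase and a ubiquitin ligase linked to Ikaros proteins, none reached 2-fold on VILLIN-HA/CL4-TCR against CL4-TCR (median 0.22). Whether these enzymes, the ligase above all, act on Ikaros proteins in these cells was not tested. The ligase subunit Rbx1 had 152, 119 and 32.2, the last of them close to the floor of 31.7. It was 4.70-fold lower on Villin-HA + CL4-TCR than on CL4-TCR. Between the HA arrays it was 3.70-fold higher on VILLIN-HA/CL4-TCR, so both folds rest on that dim signal. No other member of this list was counted in either comparison. Crbn, the substrate receptor of that ligase, had 1192.5, 2244 and 1665, a log2 difference of 0.91 between the first 2 arrays.

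Genes linked to control by Ikaros or Aiolos in lymphocytes went in both directions. On VILLIN-HA/CL4-TCR against CL4-TCR, 1 of 12 measured was higher and 2 lower (median 0.01), beside 7.43% and 6.63% of all measured genes. Tbx21, the T-box factor of effector T cells, had 66.5, 184 and 257, 2.77-fold higher on the second than on the first. Il7r, the interleukin 7 receptor, had 5515, 1359 and 3677, a 4.06-fold lower signal on the second. Dtx1, a gene of the Notch pathway, had 2642, 799 and 1374.5 and was 3.31-fold lower there.

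On Villin-HA + CL4-TCR against CL4-TCR, 3 of 13 were higher and 2 lower (median -0.12), beside 11.9% and 9.53% of all measured genes. The higher ones were Ifng, the gene of interferon gamma (at least 19.9-fold), Tbx21 (3.87-fold) and Il2, the T cell growth factor (at least 2.50-fold). The lower ones were the survival gene Bcl2, with 952, 726 and 269 (3.54-fold), and the receptor gene Notch1, with 1309, 1237.5 and 642 (2.04-fold). Between the HA arrays 1 of 12 was higher on VILLIN-HA/CL4-TCR, Bcl2 (2.70-fold), and 2 lower, Ifng (10.8-fold) and Il7r (2.71-fold), with a median of -0.56. Il10, Hes1, Ptcra, Dntt, Rag1 and Rag2 were below the floor on all 3 arrays.

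Of the genes expressed with Helios in regulatory CD4 T cells, more were higher than lower on each HA array. Between these arrays, more were lower than higher where Ikzf2 was higher. Of 13 found, 7 were higher and none lower on VILLIN-HA/CL4-TCR than on CL4-TCR (median 1.85), and 11 were higher and none lower on Villin-HA + CL4-TCR (median 2.23). Between the HA arrays 2 were higher on VILLIN-HA/CL4-TCR and 7 lower (median -1.09). The list holds Nrp1, Tnfrsf9, Pdcd1 and Itgae, all 4 chosen by the study on these samples, so it is not independent evidence of its direction. These 4 were among the 7 counted as higher on VILLIN-HA/CL4-TCR than on CL4-TCR. The others counted there, Il2ra, Ctla4 and Nt5e, had CL4-TCR at the floor, so their folds are lower bounds. On Villin-HA + CL4-TCR the same holds for these 3 and for Foxp3, Entpd1 and Ebi3. The medians of 1.85 and 2.23 are the values of Il2ra and Ebi3, so they are lower bounds too.

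The 2 genes that, like Ikzf2, were at least 2-fold higher on VILLIN-HA/CL4-TCR than on Villin-HA + CL4-TCR are both among those chosen. Nrp1, the receptor neuropilin 1, had signals of 48.9, 510.0 and 96.2, a 5.30-fold difference between the HA arrays, and Tnfrsf9 was 2.49-fold higher. Ctla4, an inhibitory receptor, went the other way, with 16.9, 449 and 4180 and a 9.30-fold lower signal on VILLIN-HA/CL4-TCR. Entpd1, the ectoenzyme CD39, had 9.8, 37.4 and 178, 4.75-fold lower there. Foxp3, which defines regulatory CD4 T cells and partners with Eos, had 29.6, 38.2 and 86.4, 2.26-fold lower there, so its order of the HA arrays was not that of Ikzf2 or Ikzf4.

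Of 7 genes of Ly49-positive CD8 regulatory cells, in which Helios is known, 4 were found and few were measured. Il2rb, the interleukin 2 receptor beta chain, had 82.4, 74.6 and 239 and was 2.90-fold higher on Villin-HA + CL4-TCR than on CL4-TCR. The Ly49 genes Klra1 and Klra7 were below the floor on all 3 arrays, and Klra5 reached 32.1 on Villin-HA + CL4-TCR only. So 1 gene of 2 measured was higher on Villin-HA + CL4-TCR than on CL4-TCR (median 0.78), and 1 of 2 was lower on VILLIN-HA/CL4-TCR than on Villin-HA + CL4-TCR (median -0.85). The 1 gene measured on VILLIN-HA/CL4-TCR against CL4-TCR, Il2rb, had a log2 difference of -0.14.

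**Figure D4:**
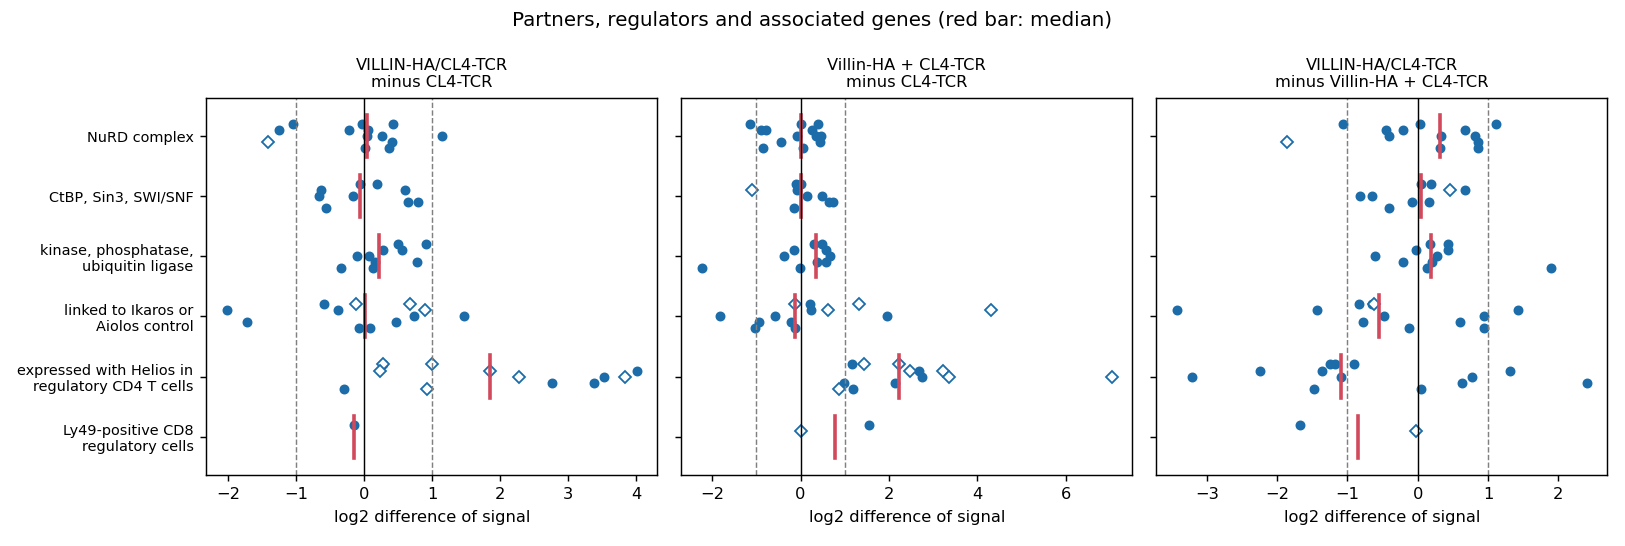
Log2 difference of signal (horizontal axis) of each measured gene in the 6 lists of partners, regulators and associated genes (vertical axis), in the 3 comparisons. Open diamonds have 1 array at the floor and are bounds, red bars are list medians, and dashed lines mark 2-fold. The genes expressed with Helios in regulatory CD4 T cells have medians of 1.85, 2.23 and -1.09, of which the first 2 are lower bounds. The 3 lists of partners and enzymes have medians between -0.06 and 0.34.

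Transcripts of other cells and of dividing cells also moved with the arrays. Summed over 9 proliferation genes, the signal was 3767 on CL4-TCR, 14238.5 on VILLIN-HA/CL4-TCR and 19409 on Villin-HA + CL4-TCR, so the order of the HA arrays was not that of Ikzf2. Myeloid and dendritic cell markers (10 genes) summed to 244, 1504 and 1123. Against CL4-TCR, 3 of 6 measured were higher on each HA array and none lower. Of all measured genes, 7.43% were higher on VILLIN-HA/CL4-TCR and 11.9% on Villin-HA + CL4-TCR. Among the myeloid markers Lyz2, with 84.5, 817 and 312, and Csf1r, with 40.9, 384 and 125, had the same order of arrays as Ikzf2. So did C1qb, with 18.1, 148.6 and 44.6, below the floor on CL4-TCR. C1qa, with 4, 36 and 29.6, passed the floor only on VILLIN-HA/CL4-TCR. Itgax, with 38.9, 43.5 and 430.7, Adgre1, with 33.3, 40.1 and 64.6, and Cd14, with 5.3, 5.2 and 50.8, were highest on Villin-HA + CL4-TCR, while Itgam, Siglech and Xcr1 were below the floor on all 3. B cell markers (7 genes, a cell type known for Aiolos) summed to 316, 516 and 424, with Ms4a1 2.64-fold higher on VILLIN-HA/CL4-TCR, Cd79b 2.11-fold higher on Villin-HA + CL4-TCR and Cd79a below the floor on all 3.

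Of the 3 plasma cell markers, which summed to 105, 265 and 122, Jchain was 2.91-fold higher on VILLIN-HA/CL4-TCR. Of 5 markers of immature thymocytes, which express Helios, only Cd1d1 passed the floor, with 1536, 1394 and 651. It was 2.36-fold lower on Villin-HA + CL4-TCR than on CL4-TCR. That gene alone does not mark these cells, as Rag1, Rag2, Dntt and Ptcra were below the floor on all 3 arrays. The 2 NK cell markers found and Cd4 and Cd40lg of CD4 T cells were also below it. Of 3 gamma delta T cell markers, Cd163l1 was at least 2.81-fold lower on both HA arrays and Zbtb16 at least 2.69-fold higher on Villin-HA + CL4-TCR. Gut epithelium markers (5 genes) summed to 231, 187 and 247, and Vil1 was below the floor throughout.

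On Villin-HA + CL4-TCR, 6 of 6 skeletal muscle markers and 3 of 4 measured stromal and endothelial markers were higher than on CL4-TCR. Of all measured genes, 11.9% were higher there. None of these markers was counted on VILLIN-HA/CL4-TCR, where 2 muscle markers and 1 stromal marker were measured. Their sums were 79.9, 109 and 4944 for muscle and 88.1, 63.4 and 710.5 for stroma (5 genes). No muscle marker passed the floor on CL4-TCR and no stromal one on VILLIN-HA/CL4-TCR. The part of these cells in the Ikaros family differences was not tested.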

How the data were processed

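One Affymetrix-type array per group was hybridised with biotinylated cRNA from 6 µg of total RNA, per the labels' protocols. The authors deposited linear intensity values made with MAS5, per the submitters' processing notes, which scales each array as a whole. The 2% trimmed mean is 150 on each array in the deposited values. Neither its version nor its background settings were stated.

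Of 45101 probe sets, 34958 had 1 gene symbol, 932 several and 9211 none, and only the first kind was named. Symbols were updated through Entrez identifiers to RefSeq's GRCm38.p6 gene table, which held 34754. Signals below the floor were raised to it before taking log2, and a gene was represented by its probe set of highest mean signal. A fold counts from 2 upward, and where 1 array lay at the floor it is a lower bound. No probe level was set against another gene's. The members, the 6 lists of partners and associated genes, the proliferation list and the 11 marker lists were chosen with earlier results of these data known. Genes were named by a rule: all members, the 5 genes nearest to Ikzf2, and the largest measured differences of each list, with genes a clause of background concerns. The counting steps were tested on simulated data, with changes planted only in bright genes and noise smaller than the spread between probe sets. That test does not cover dim genes or the noise of real arrays. Python 3.11.15, NumPy 2.4.6, pandas 2.3.3 and Matplotlib 3.10.9 were used. The floor, scaling, pseudocount and choice of probe sets were varied.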

Additional observations from a re-analysis of the deposited data

Results flagged for a closer look

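In 2 probe sets of the family, the HA arrays lay on opposite sides of CL4-TCR. The Ikzf3 probe set 1453378_at had a log2 difference from CL4-TCR of 0.67 on VILLIN-HA/CL4-TCR and -0.84 on Villin-HA + CL4-TCR. The Ikzf5 probe set 1436554_at had log2 differences of -0.057 and 0.50. The difference between the HA arrays was not tested, as each group holds 1 array, and every one of these values is short of 2-fold.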

How the results depend on the processing

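Each member's difference in each comparison was recomputed under 7 alternatives: the floor at the 35th or 65th percentile, a pseudocount of 16 in place of the floor, arrays scaled to 1 median, quantile normalization, the mean of the probe sets above the floor, and no _s_at or _x_at probe sets. Of the 105 values, none took another sign, 100 stayed within the pooled SD between probe sets of a gene and 3 crossed 2-fold. The other floors and the removal of probe sets could not move a member, since each chosen probe set lies above every floor and ends in plain _at, so 45 of these values are identical by construction. With the mean of probe sets, Ikzf2 had a log2 difference of 3.24 between VILLIN-HA/CL4-TCR and CL4-TCR, a lower bound because 1421643_at lay below the floor on CL4-TCR. The count of members past 2-fold between the HA arrays was 2 with the mean of probe sets, where Ikzf4 reached a log2 difference of 1.195, and 2 with arrays scaled to 1 median, where Ikzf5 reached 1.02. The other counts were 3 under all 7 for VILLIN-HA/CL4-TCR, and 2 to 3 for Villin-HA + CL4-TCR, against CL4-TCR. Over all alternatives Ikzf2 ranged from 3.24 to 4.05, from 2.29 to 2.90 and from 1.31 to 1.77 on the log2 scale, where 3.24 and 1.31 are set by the bound of 1421643_at. Ranked by the larger of the 2 gaps, 4 of the 5 genes nearest to Ikzf2 were the same. No paired analysis was possible because each group holds 1 array, and none could be left out.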
